A study of Arabidopsis thaliana with 12 samples.

Results

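In whole Arabidopsis thaliana seedlings, 197 of 22746 probe sets were selected as glucose-induced in wild type (WT) and nearly flat after silencing of TOR, with about equal levels before glucose. A probe set is the group of array probes that reads 1 transcript or several similar ones. The members were chosen by measured values, the means of the 3 arrays of each group: a highest group mean of at least 7, a difference of at least 1.5 between WT seedlings with and without glucose, a difference within 0.3 in tor seedlings, and a difference within 0.5 between untreated tor and WT. All values are log2 levels from RMA, so a difference of 1 is a doubling. Because the 4 group means set the choice, every difference among them is given below as a description and not as a test. Of the 197, 105 match a single named gene and cover 104 genes, 6 match several genes, and 86 carry no gene name and enter counts and ranges.

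The series compared 4 groups of 3 arrays from seedlings 3 days old: tor with glucose, tor without, WT with glucose and WT without. Glucose was given at 15 mM for 2 h to seedlings that had first been germinated in low light so that they spent their seed reserves. The tor seedlings carry an estradiol-inducible RNAi construct against TOR in the Col-0 background, and the WT seedlings are Col-0. The promoter behind the construct, the number of independent lines and whether WT seedlings also received estradiol are not stated, so the inducer and the silencing cannot be told apart. TOR has no named probe set here, and its silencing was not checked. Fewer cells of a type and less RNA per cell cannot be told apart in whole seedlings. The labels call the replicates biological. Of the marker lists of green tissue and root, 2 genes each have a named probe set. LHCB4.1, a light-harvesting protein gene, had group means of 13.66 in tor with glucose and 13.60 in tor without, against 13.73 in WT with glucose and 13.80 in WT without. LHCB4.2, of the same family, had 13.29 in tor with glucose and 13.25 in tor without, against 12.49 in WT with glucose and 12.55 in WT without, and was called higher in tor in both conditions (limma). The root expansin gene EXPA7 had 4.83 in tor with glucose and 4.82 in tor without, against 7.03 in WT with glucose and 6.84 in WT without, and was called lower in tor in both. EXPA18, also a root expansin gene, had 5.28 in tor with glucose and 5.47 in tor without, against 5.98 in WT with glucose and 5.14 in WT without. LHCB4.1 was not called in either condition, and EXPA18 was called lower in tor with glucose only. Over all probe sets, 25.4% were called higher and 16.0% lower in tor with glucose, and 19.5% and 8.66% without. The genotypes thus differed in LHCB4.2 and EXPA7 in both conditions and in EXPA18 with glucose. The part of tissue makeup in the results below was not tested.

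TOR is a protein kinase that links nutrient supply to growth. In plants, as in yeast and animals, its activity favours the building of ribosomes, the largest investment of a growing cell. Sugars from photosynthesis or from the medium activate plant TOR, and seedlings that have used up their stored oil depend on that supply. Ribosome building starts with RNA polymerase I, which copies the ribosomal RNA precursor. Processing complexes then cut, modify and fold it in the nucleolus.

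Among the members, WT levels with glucose exceeded those without by 1.501 to 5.54, with a median of 1.84 ± 0.34 (SD of the medians of the 3 same-numbered array pairs), which is 3.58-fold. In 9 members the mean of WT without glucose lay below 5, the level of dark probe sets, so that their WT differences are lower limits. In tor the same difference ran from -0.27 to 0.30, with a median of 0.16 ± 0.06, or 1.12-fold. The median over all 22746 probe sets was 0.01 in tor and -0.01 in WT. The choice sets the narrow range in tor. Within it, 174 of 197 members had a positive tor difference (88.3%), against 52.1% of all probe sets. In all 3 array pairs it was positive for 90 members (45.7%), against 70.1% of the other WT-induced probe sets and 17.8% of all. The choice bears on this contrast, since some of those others were left out for a larger tor difference. A member's change in tor was 8.31% of its change in WT at the median, against 13.7% for the other WT-induced probe sets. A small change in tor was thus not particular to the members, and the limit of 0.3 bears on the gap. With glucose, tor lay below WT in all 197 members, by 0.78 to 5.86, which the limits of the choice imply.

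**Figure D1:**
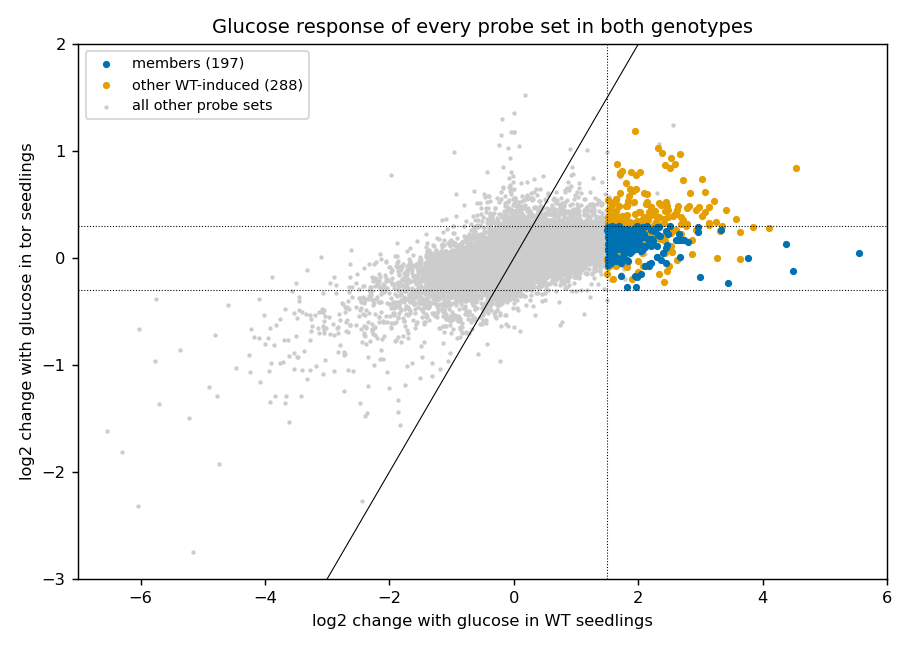
Each point is a probe set, with its log2 change with glucose in WT on the x axis and in tor on the y axis. Blue points are the 197 members and orange points the 288 other probe sets with a WT difference of at least 1.5 and a level of at least 7. Grey points are all other probe sets. Dotted lines mark the limits of 1.5 and 0.3, and the solid line marks equal change. The members spread to 5.54 along x and stay within 0.3 of 0 along y.

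A total of 485 probe sets met the limits on level and WT difference, and the 197 members are 40.6% of them. Another 68 were excluded only because tor differed by 0.3 or more with glucose, with a median tor difference of 0.39. All of these 68 were positive, and 0 fell by 0.3. A further 102 were at least 0.5 higher in untreated tor than in untreated WT and 47 were at least 0.5 lower, with a flat response in tor. The remaining 59 and 12 were higher or lower before glucose and also differed with it in tor. A flat response in tor therefore also occurred among WT-induced probe sets whose starting levels differed.

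**Figure D2:**
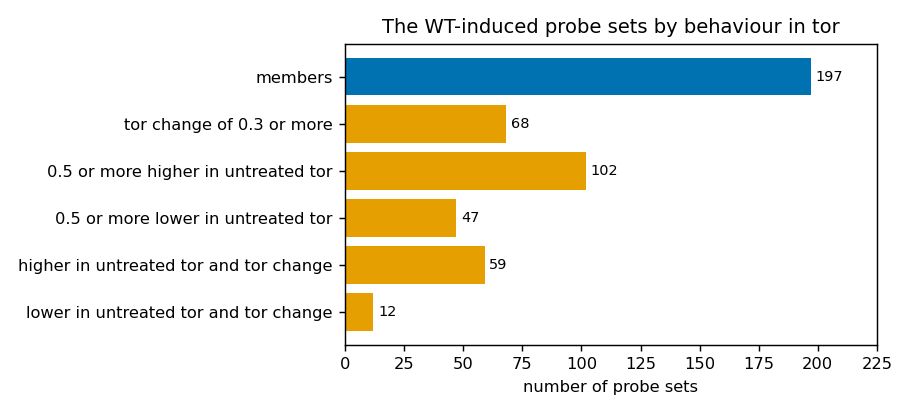
Bars give the number of probe sets among the 485 with a WT difference of at least 1.5 and a level of at least 7, by behaviour in tor. The 197 members (blue) are the largest class, and 102 that were higher in untreated tor with a flat response are the next.

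By known role, 34 of the 105 named members (33 genes) were placed with ribosome production or the modification of ribosomal and transfer RNA. The roles were assigned after the members were known, from general knowledge of these loci, and to members only. The counts by role thus have no share over all probe sets beside them and cannot be read as an enrichment. The 34 had a median WT difference of 1.85 and a median tor difference of 0.15. In tor 34 of 34 lay above 0, against 90 of the 105 named members and 52.1% of all probe sets. NRPA1, the main catalytic subunit of that polymerase, stood at 6.92, 7.22 and 7.30 in tor with glucose and 6.75, 7.07 and 6.98 in tor without, against 8.28, 9.01 and 8.89 in WT with glucose and 6.63, 6.55 and 6.91 in WT without. All 3 WT arrays with glucose stood above the other 9, and the ranges of tor with and without glucose overlapped. Its difference was 0.21 ± 0.19 in tor and 2.03 ± 0.19 in WT (SE of the linear model, pooled over the 4 groups without pairing). By array number 1, 2 and 3, its tor difference was 0.17, 0.15 and 0.32.

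The small-subunit processome, the particle that makes the first cuts in the ribosomal RNA precursor, is represented by 8 members. Their roles, other than that of YAO, are named after the yeast proteins they resemble. AT3G06530, the UTP10 relative, had 7.38, 7.51 and 7.64 in tor with glucose and 6.97, 7.41 and 7.49 in tor without, against 9.28, 9.53 and 9.65 in WT with glucose and 7.01, 6.87 and 7.17 in WT without. Levels in WT with glucose were more than 1.5 above every other array. YAO, a nucleolar WD-repeat protein needed in the embryo sac, had 7.59, 7.76 and 7.53 in tor with glucose and 7.66, 7.59 and 7.33 in tor without, against 8.92, 9.32 and 9.24 in WT with glucose and 7.09, 7.10 and 7.12 in WT without. In untreated tor every array lay above the WT arrays, a difference of 0.43 that is inside the limit of the choice. AT3G10530, the UTP7 relative, differed by 0.25 in tor and 2.44 in WT.

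Other processome members were AT4G02400 (UTP14), AT3G21540 (UTP12), AT4G28450 (SOF1), AT1G63810 (UTP22) and AT5G66540 (MPP10), with WT differences of 1.92, 1.88, 1.87, 1.79 and 1.64. All 8 were slightly higher in untreated tor than in untreated WT, by 0.22 to 0.43. Over all probe sets the median of that difference was 0.08, and array medians were 6.76 to 6.86 in tor and 6.53 to 6.68 in WT. The part of this overall shift in the members' starting levels was not tested.

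Large-subunit assembly factors gave 9 probe sets of 8 genes. AT1G79150, the relative of yeast NOC3, which escorts large-subunit precursors, has 2 probe sets and both were members. The first differed by 0.22 in tor and 2.65 in WT, and the other by 0.30 in tor and 1.99 in WT. Its partner-like gene AT2G18220 (NOC2) had 6.54, 6.34 and 6.27 in tor with glucose and 6.59, 6.45 and 5.96 in tor without, against 7.90, 8.59 and 8.50 in WT with glucose and 6.12, 6.34 and 6.96 in WT without. Again the 3 WT arrays with glucose stood apart from the rest. AT1G52930 (BRX1-2), an assembly factor of the large subunit, stood at 8.97, 8.73 and 8.99 in tor with glucose and 8.93, 8.77 and 8.60 in tor without, against 10.37, 10.42 and 10.76 in WT with glucose and 8.50, 8.65 and 8.98 in WT without. For this gene the 9 arrays other than WT with glucose shared a range of less than 0.5. The relatives of yeast RRS1, RPF2, EBP2, NIP7 and SDA1 completed the group, with WT differences of 1.52 to 1.78.

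The enzymes and guide particles that modify ribosomal and transfer RNA gave 10 members. Both Arabidopsis relatives of the RNA acetyltransferase NAT10 were among them. AT3G57940 had 6.39, 6.46 and 6.56 in tor with glucose and 6.42, 6.05 and 6.59 in tor without, against 7.63, 8.29 and 8.39 in WT with glucose and 6.08, 5.65 and 5.98 in WT without. AT1G10490 differed by 0.16 in tor and 1.61 in WT, and its starting level in tor was 0.39 above that in WT, close to the 0.45 of AT3G57940. Core proteins of the methylation guide particles were represented by AT3G05060 (NOP58-2, WT difference 1.76), AT3G12860 (a NOP56 relative, 1.91) and AT5G20160 (the SNU13 relative, 1.86). NHP2 (AT5G08180), of the particles that guide pseudouridylation, differed by 0.07 in tor and 1.53 in WT. TRM82, whose yeast relative supports methylation of transfer RNA, differed by 0.30 in tor and 1.57 in WT. SPB1-like AT4G25730, whose yeast relative methylates ribosomal RNA, was less clear. It had 7.70, 8.98 and 9.39 in WT with glucose, and 6.60, 6.57 and 7.87 in WT without, so that its WT groups overlap.

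Ribosomal proteins themselves were few. AT2G32220, a large-subunit protein of the L27 family, differed by 0.30 in tor and 2.50 in WT, and AT3G10610, of the S17 family, by 0.20 in tor and 1.84 in WT. Both started slightly lower in tor, by 0.45 and 0.21. In the same group, untreated tor differed from untreated WT by -0.06 for AT3G58660 (L1 family) and by 0.50 for AT1G64880 (S5 family). Reads of such gene families may be shared between near-identical copies on an array. The DEAD-box RNA helicase gene AT3G18600 (RH51) had 8.69, 8.55 and 8.34 in tor with glucose and 8.74, 8.21 and 8.16 in tor without, against 10.30, 10.60 and 10.66 in WT with glucose and 8.36, 7.97 and 8.52 in WT without.

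**Figure D3:**
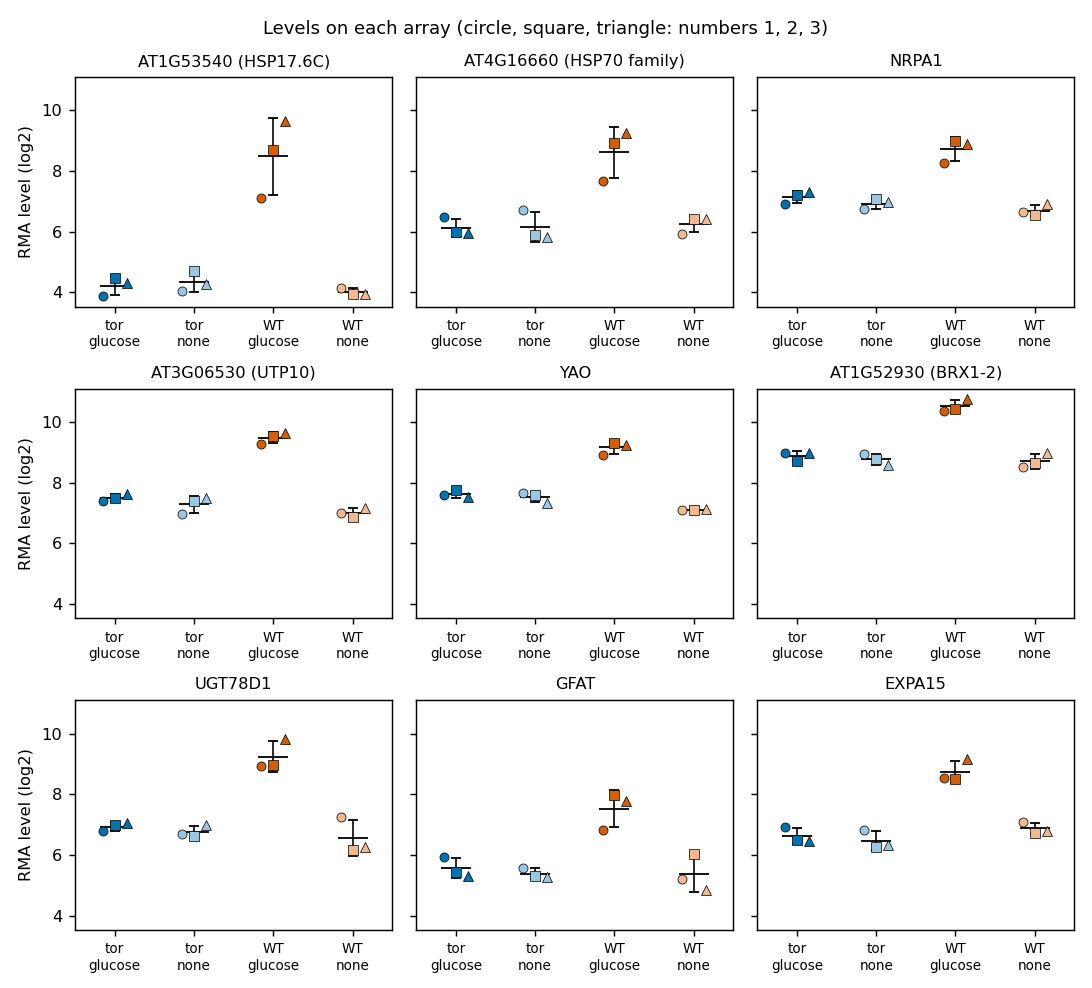
Log2 RMA levels of 9 members on each array, in tor with glucose, tor without, WT with glucose and WT without. Symbols give the 3 arrays of a group, horizontal bars the mean and error bars the SD. In each panel the 3 WT arrays with glucose are the highest of the 12.

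Chaperones formed another group, with 7 members. The largest WT differences among named members were those of the small heat-shock proteins, which hold unfolding proteins in solution. AT1G53540 (HSP17.6C) had 3.88, 4.48 and 4.30 in tor with glucose and 4.05, 4.69 and 4.29 in tor without, against 7.13, 8.70 and 9.64 in WT with glucose and 4.15, 3.93 and 3.95 in WT without. Levels below 5 are those of dark probe sets, so its difference of 4.48 in WT is a lower limit and small changes in tor cannot be seen. AT2G29500 (HSP17.6B) had 4.97, 5.15 and 4.76 in tor with glucose and 4.59, 5.25 and 4.66 in tor without, against 8.97, 9.87 and 10.01 in WT with glucose and 5.68, 5.43 and 4.61 in WT without. The tor means of AT2G29500, 4.96 with glucose and 4.83 without, are also at the level of dark probe sets. AT4G16660, of the HSP70 family, differed by -0.02 in tor and 2.37 in WT.

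In 5 of the 7 chaperone genes the tor difference was below 0, against 23 of 197 members. Over all probe sets 52.1% of tor differences were above 0. Each of the 7 chaperone differences in tor was smaller in size than its SE (0.32 to 0.62). That SE is pooled over the 4 groups and leaves out the pairing by array number. The SD of the 3 same-numbered tor differences ran from 0.05 (ATERDJ3B) to 0.48 (Hsp70-2). Several chaperone genes varied with the array number. AT1G54050, a class III small heat-shock protein gene, had 7.65, 9.32 and 8.29 in WT with glucose, and 8.07, 6.08 and 5.93 in WT without. The first untreated array lay within the range of the treated ones, so the WT groups overlap. Hop3, a co-chaperone that joins HSP70 to HSP90, had 6.25, 5.90 and 5.03 in tor with glucose and 6.73, 5.69 and 5.20 in tor without, against 6.94, 8.05 and 7.98 in WT with glucose and 6.44, 5.11 and 5.26 in WT without. Hsp70-2 had 9.07, 9.45 and 10.11 in WT with glucose, and 8.27, 7.39 and 7.13 in WT without. Array 1 was the highest of the untreated arrays for these 3 genes in both genotypes. ATERDJ3B, a chaperone cofactor of the endoplasmic reticulum, differed by 0.04 in tor and 1.79 in WT.

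**Figure D4:**
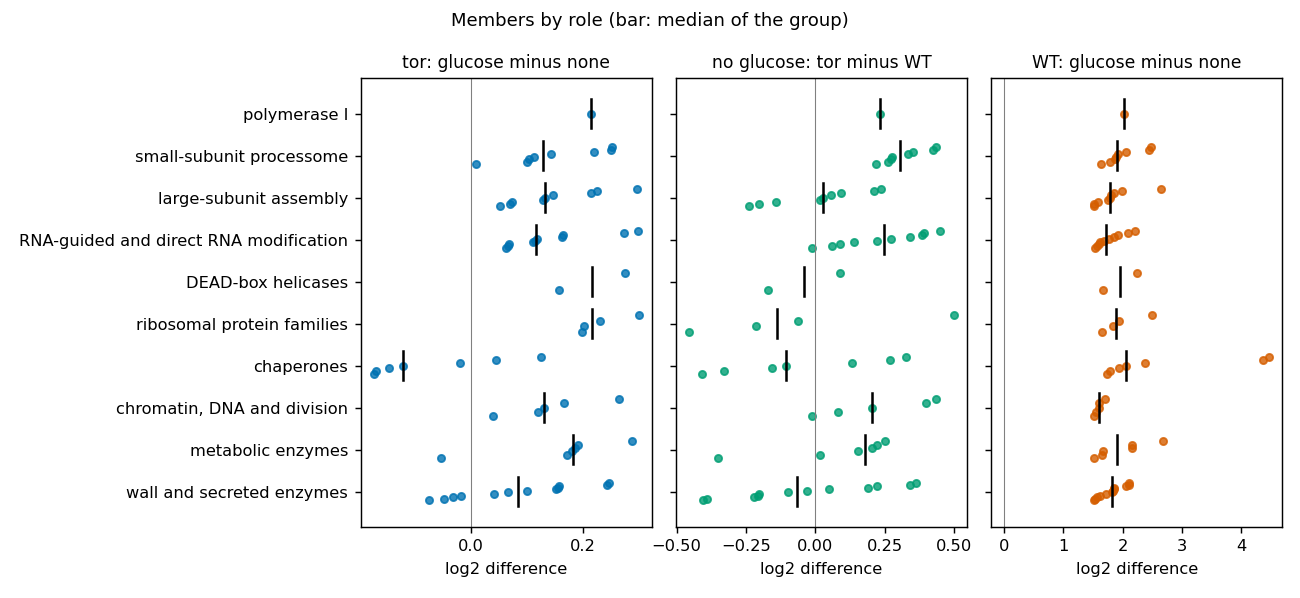
Named members by role, with log2 differences on the x axes: tor with glucose minus tor without (left), untreated tor minus untreated WT (middle) and WT with glucose minus WT without (right). Points are probe sets and black bars group medians. The chaperones are the group with a negative median in tor (-0.12). That median is the value of HSP17.6C, a dark probe set in tor. All 8 processome members lie right of 0 in the middle panel. The x ranges differ, and the choice of members bounds the left panel at 0.3 and the middle panel at 0.5.

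Genes of chromatin, DNA and division came next. HTB1, a histone H2B gene, had 9.12, 8.58 and 8.70 in tor with glucose and 8.90, 8.54 and 8.61 in tor without, against 10.13, 9.71 and 9.98 in WT with glucose and 8.56, 8.18 and 8.002 in WT without. The WT arrays with glucose lay above all others. A pair of probe sets that match several histone H3 genes differed by 2.17 and 1.75 in WT, and a probe set that matches several histone H4 genes by 1.96. POLD3, an accessory subunit of DNA polymerase delta, differed by 0.26 in tor and 1.60 in WT. Kinesin family gene AT5G66310, a microtubule motor, differed by 0.17 in tor and 1.60 in WT.

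Among metabolic enzymes, UGT78D1, which attaches rhamnose to flavonols, had 6.77, 6.97 and 7.05 in tor with glucose and 6.67, 6.62 and 6.99 in tor without, against 8.92, 8.98 and 9.84 in WT with glucose and 7.24, 6.18 and 6.25 in WT without. GFAT, the first enzyme of the pathway that makes amino sugars from fructose 6-phosphate, had 5.95, 5.44 and 5.31 in tor with glucose and 5.58, 5.29 and 5.28 in tor without, against 6.82, 7.96 and 7.78 in WT with glucose and 5.22, 6.03 and 4.86 in WT without. Both enzymes use activated or phosphorylated sugars. PYRB, aspartate transcarbamoylase of pyrimidine synthesis, lay near 2 limits of the choice, with a WT difference of 1.51 and a tor difference of 0.29. AT1G73600, a phosphoethanolamine methyltransferase gene of phosphatidylcholine synthesis, differed by -0.05 in tor and 2.16 in WT. Its tor means, 4.68 with glucose and 4.73 without, are those of a dark probe set, so small changes in tor cannot be seen. For AT4G31790, a relative of yeast diphthine synthase, which modifies an elongation factor, the SE was the smallest of the genes named here: 0.19 ± 0.09 in tor and 1.67 ± 0.09 in WT.

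Wall proteins and secreted enzymes gave 12 members. EXPA15, an expansin that loosens the cell wall, had 6.92, 6.50 and 6.44 in tor with glucose and 6.83, 6.27 and 6.31 in tor without, against 8.55, 8.49 and 9.15 in WT with glucose and 7.09, 6.74 and 6.80 in WT without. The pectate lyase family gene AT1G04680 differed by 0.25 in tor and 1.85 in WT, and RRT1 (AT5G15740), which adds rhamnose to pectin, by 1.53 in WT. Proteases and lipases of this group were AT5G07030 and AT1G01300 (aspartyl proteases), AT5G45650 (a subtilase), AT3G43960 (a cysteine protease), scpl35 (a serine carboxypeptidase-like protein) and AT5G45670 and AT4G18970 (GDSL lipases). AT5G07030 had 8.39, 5.93 and 6.20 in tor with glucose and 8.08, 5.84 and 6.30 in tor without, against 9.14, 8.84 and 9.20 in WT with glucose and 7.88, 6.73 and 6.27 in WT without. Array 1 was the highest or near the highest in each of its groups. Of the 12, 5 started higher in tor than in WT, with a median of -0.07 for that difference.

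The other named members have no role group here. AT1G80130 had 4.096, 5.02 and 4.75 in tor with glucose and 4.76, 5.07 and 4.59 in tor without, against 4.92, 9.40 and 8.996 in WT with glucose and 4.81, 4.70 and 4.84 in WT without. Its WT mean difference of 2.99 rests on 2 of 3 arrays, and the other 3 groups are at the level of dark probe sets. AT5G02890 differed by -0.05 in tor and 2.45 in WT. For AT5G62440, which has 2 probe sets, the member differed by 0.29 in tor and 2.30 in WT, and the non-member by 0.35 in tor and 1.98 in WT. A probe set with no gene name here had a WT difference of at least 5.54, the highest value among the members, with 4.36, 4.52 and 4.74 in tor with glucose and 4.69, 4.38 and 4.41 in tor without, against 10.23, 10.07 and 10.91 in WT with glucose and 5.41, 4.73 and 4.46 in WT without. Its means other than in WT with glucose are those of a dark probe set, so small changes in tor cannot be seen. The 86 without a gene name had a median WT difference of 1.85 and a median tor difference of 0.18, and the 105 with a single name 1.82 and 0.14.

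The pairs of same-numbered arrays showed how even the response was. By number 1, 2 and 3, the members' median difference was 0.09, 0.14 and 0.22 in tor and 1.46, 2.00 and 2.09 in WT. The first WT pair gave the smallest difference in 173 of 197 members (87.8%), against 84.4% of the other WT-induced probe sets and 41.0% of all probe sets. Members lay at a median of 8.79 on WT array 1 with glucose, against 9.05 and 9.22 on the other two, and at 7.21 on WT array 1 without glucose, against 6.87 and 7.01. In 172 members all 3 WT pairs differed by at least 1. AT1G30240, at 1.62, 1.61 and 1.63, had the most even WT response of the named members, followed by AT5G45650 and AT2G19385. The least even were AT1G80130 (0.12, 4.70 and 4.16), AT1G54050 (-0.41, 3.24 and 2.35) and AT1G30070 (0.02, 2.76 and 2.91).

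**Figure D5:**
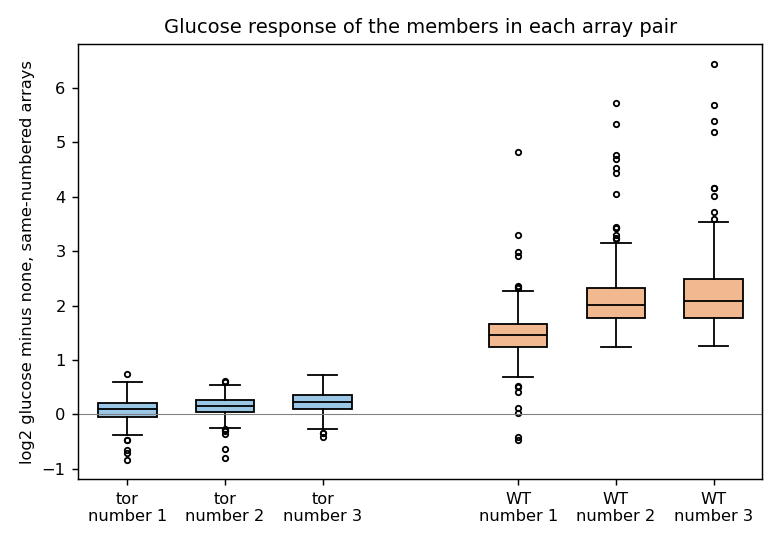
Log2 difference between the arrays with and without glucose of the same number, for the 197 members in tor (left) and WT (right). Boxes span the quartiles with the median as a line, whiskers reach to 1.5 box lengths and points lie beyond. The medians are 0.09, 0.14 and 0.22 in tor and 1.46, 2.00 and 2.09 in WT.

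Arrays left out of the choice give values that the choice did not use. When the limits were applied to 2 of the 3 numbers, 222, 167 and 163 probe sets were chosen with number 1, 2 and 3 left out, and 141, 130 and 127 of them were among the 197. In the number left out, the median difference with glucose was 0.11, 0.18 and 0.26 in tor and 1.34, 2.00 and 2.12 in WT. Over all probe sets those medians lay between -0.01 and 0.02 in tor and between -0.03 and 0.03 in WT. The WT difference exceeded the tor difference in 220 of 222, 167 of 167 and 163 of 163, against 50.7%, 49.8% and 49.3% of all probe sets. This share was not computed for the other WT-induced probe sets, so it shows no trait particular to the members. All limits on differences were met again by 36, 80 and 66, or 16.2%, 47.9% and 40.5%. A different measure, over all 3 pairs, uses the arrays of the choice and is not a left-out value. By it, every WT pair exceeded every tor pair in 97.5% of the members. The share was 93.8% of the other WT-induced probe sets and 20.0% of all.

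The members' median SD between arrays of a group was 0.28 in tor with glucose, 0.32 in tor without, 0.28 in WT with glucose and 0.30 in WT without. The 4859 other probe sets whose highest group mean lay between 8.23 and 9.85, the middle range of the members, had 0.21, 0.24, 0.19 and 0.21 in the same order. The other WT-induced probe sets had 0.37, 0.40, 0.30 and 0.42. The members thus lay between both sets in each group. The level was matched only on the highest group mean.

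In the linear model over all 22746 probe sets, called at an adjusted p under 0.05, the members' calls describe the choice and carry no support for it. Glucose gave 192 members higher in WT, where 13.5% of all probe sets were called higher, and 0 lower, against 10.5%. AT5G07030, AT1G54050 and 3 without a single name were not called. In tor 0 members were called (limma), as for all probe sets at 0.0%, with or without the array number as a block. In the model without that block (limma), 0 members had an unadjusted p under 0.05. That model leaves out the pairing, although deviations of same-numbered tor arrays with and without glucose correlated at 0.678 to 0.863. The unadjusted count was not made with the block, so small paired changes in tor were not tested by it. The response was lower in tor than in WT for 132 members, against 3.44% of all probe sets, and higher for 0, against 1.93%. With the array number as a block it was lower for 180, against 8.04%, and higher for 0, against 5.34%. Without the block, that count was 85 without WT array 2 in either condition or without tor array 2 or 3 with glucose. With glucose, tor was lower than WT for 191 members, against 16.0%, and higher for 0, against 25.4%. The block gave 197 lower, against 20.4%, and 0 higher, against 30.4%. Without glucose, tor was higher than WT for 5 members, against 19.5%, and lower for 0, against 8.66%. With the array number as a block it was higher for 15, against 26.2%. Among the 5 were YAO, AT1G64880, AT4G40000 and AT2G18330, and the other one has no name here. In 194 members the WT arrays with glucose all lay above those without, against 21.0% of all probe sets. The exceptions were AT1G54050, AT4G25730 and a probe set that matches several genes.

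Other genes of the same machinery place the members in their pathway. Of 51 ribosome biogenesis genes on a list drawn up from general knowledge, with earlier results of these data known, 30 have a named probe set, and 14 of these are members. These 14 were chosen for the differences counted here. In WT, 29 of 30 were called higher with glucose, against 13.5% of all probe sets, and 0 lower. In tor 0 were called in either direction, against 0.0%. The response was lower in tor for 26 of 30, against 3.44%. Without glucose, tor was higher than WT for 3, against 19.5%, and lower for 0, against 8.66%. The list's median difference was 0.12 in tor and 1.63 in WT. Of the 16 outside the choice, 13 missed it by the level or the size of the WT difference, such as the scaffold protein gene BOP1 (AT2G40360), at 0.28 in tor and 1.47 in WT, and the guide particle gene GAR1 (AT3G03920), at 0.01 in tor and 1.34 in WT. AT3G15460 (BRX1-1), the copy of the member BRX1-2, had a WT difference of 3.57 but started 1.49 higher in untreated tor. BMS1 (AT1G06720), a GTPase of the processome, was out by a tor difference of 0.35. NOP14 (AT1G69070) started 0.56 higher in tor. PCN (AT4G07410), at 0.38 in WT, was the gene not called there.

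Of the RNA polymerase I and III genes, 5 were measured, and NRPA1 is the member. NRPA2, the partner of NRPA1 in polymerase I, differed by 0.08 in tor and 1.49 in WT and started 0.58 higher in tor. The polymerase III subunit genes NRPC1 and NRPC2 started 1.43 and 0.83 higher in tor, and with glucose they differed from WT by 0.33 and -0.21. All 5 were called higher in WT with glucose, against 13.5% of all probe sets, and 0 in tor, against 0.0%. The members counted in this list and in those below were chosen for these differences. NRPC1 and NRPC2 were called higher in untreated tor, against 19.5%. Among 10 chaperone genes on the list, 9 were called higher in WT with glucose, against 13.5% of all probe sets, but the members are the small heat-shock genes. The 8 subunit genes of the cytosolic chaperonin had WT differences of 0.46 to 1.23. Of 6 nucleotide synthesis genes, 4 were called higher in WT, against 13.5% of all probe sets, and 1 lower, against 10.5%, and PYRB is the member. DNA replication genes ICU2 and MCM7 (AT4G02060) had WT differences of 2.42 and 2.41 but started 0.78 and 0.61 lower in tor, which the choice excludes. No gene of the photosynthetic, root or TOR complex lists, with 2 measured in each, is a member, and 0 seed storage genes of 4 have a named probe set.

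The limits cut through continuous distributions. At the level limit, AT1G71850, AT5G45650 and AT1G73600 were just inside at 7.10, 7.15 and 7.25, and AT3G09480, AT5G59240 and AT4G26600 (NOP2B, an RNA methyltransferase relative) just outside at 6.96, 6.94 and 6.91. At the limit on the WT difference, AT2G18330, PYRB and AT1G18090 were inside at 1.501, 1.51 and 1.51, and AT4G29030, AT4G38710 and AT5G13520 outside at 1.49 each. For tor, AT2G32220, TRM82 and AT1G79150 were inside at 0.30 each, and AT4G27380, AT3G57490 and AT2G14860 outside at 0.30 each. At the limit on the starting difference, AT5G02890, AT1G64880 and AT4G38100 were inside at -0.50, 0.50 and -0.48, and AT5G14580, AT4G34950 and AT5G05990 outside at 0.51 each. Neighbours across a limit differ by less than the SD between arrays, so membership near a limit is not a difference between genes. Leaving out untreated tor array 1 reduced the number that met the limits to 104, of which 97 are members.

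The authors' deposited tables hold a second summary of the same arrays from dChip, rounded to 1 decimal. In them, the members' median log2 change was 0.2 in tor, from -0.3 to 0.6, and 2.0 in WT, from 0.0 to 7.4. Of 197 members, 145 stayed within 0.3 in tor and 188 reached 1.5 in WT, and 139 met both. In the authors' deposited table for tor, 51 members had a positive change of 0.3 or more and 1 a negative one of that size. Values listed at 0.3 count among these, and through the rounding they can stand for changes just under that limit. For WT, 1 member with no gene name was listed at 0.0 in the authors' deposited table.

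Position in the genome was not part of the choice. By the TAIR10.1 gene table, the 104 genes lie on chromosomes 1 to 5 in numbers of 29, 12, 27, 17 and 19. Chromosome 3 held 26.0% of the members' genes, against 25.2% of the other WT-induced genes and 20.6% of all 12262 named genes on the array. Chromosome 5 held 18.3% of the members' genes, against 22.4% of the other WT-induced genes and 23.4% of all. YAO and AT4G05400 are next to each other in gene order, the only adjacent pair among the 104. AT4G05400 had 7.70, 7.24 and 7.30 in tor with glucose and 7.57, 6.99 and 6.84 in tor without, against 8.73, 8.57 and 8.83 in WT with glucose and 7.53, 6.87 and 7.16 in WT without. The median annotated length of the members' genes was 2637 bases, against 2049 for the 143 other WT-induced genes and 2109 for all genes on the array. No test was made of these shares and lengths.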

How the data were processed

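Total RNA of 12 seedling samples was labelled with biotin and hybridised to expression arrays, per the labels. The deposited values are log2 levels per probe set, made by the authors with RMA, per the submitters' processing notes, which state no version. It is not stated whether the arrays of both genotypes went into 1 normalization. Per the file headers, the authors also deposited log2 fold changes from dChip and RMA with a p-value for each, whose test is not stated; the p-values were not used. After 64 controls were left out, 22746 probe sets entered a linear model of the 4 group means, fitted by limma (version 3.58.1, with eBayes, under R version 4.3.3), with Benjamini-Hochberg adjustment over all probe sets. The model was tested on simulated data whose noise was independent between arrays. The simulation thus did not cover effects shared by arrays of the same number. One probe set lacks 1 value, and it was fitted on 11 arrays. For pairing, deviations from group means were compared between arrays of the same number; their correlation ran from 0.199 to 0.863 over 18 pairs, so a block on the number was run as an alternative. The number of arrays limits the precision.

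Gene names come from the platform annotation and the TAIR10.1 gene table. The members and lists were chosen with earlier results of these data known. Named genes are the 10 members with the largest WT difference, up to 4 members per list, those nearest each limit, genes with several probe sets, and the most and least even members. The gene table holds no product names, so groups by product could not be formed by the rule fixed for them, and other genes were chosen after their values were seen. Promoter motifs and sequences were not analysed here.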

Additional observations from a re-analysis of the deposited data

Results flagged for a closer look

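The count of members whose response to glucose was lower in tor than in WT, 132 of 197 by the linear model, is a difference between the genotypes under the same treatment. The members were chosen for it, so the count adds no support. No group holds more than 3 arrays, and single arrays were therefore not screened for outlying values.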

How the results depend on the processing

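Of 60 alternative values, 53 stayed within 1.5 times the stated count or within the spread of the array pairs, and 7 did not. The number of probe sets that met the limits was 197, and 557 with a WT difference of at least 1. It ranged from 104 to 240 when 1 array or 1 number was left out, from 97 to 191 of them members. With array medians set equal, 187 met the limits, of which 144 are members. The members called for the difference of responses numbered 132, from 85 to 147 without 1 array and 180 with the replicate block. The members called higher in WT ranged from 174 to 196 without 1 array. Calls between untreated tor and WT went to 15 with the replicate block, against 5. The block changed no other count of members called by more than 1.5 times. The planned comparison of promoter motifs was not run, since it needs promoter sequences.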
